A study of Homo sapiens with 2 samples.

Results

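Eph receptors are the largest family of receptor tyrosine kinases, and ephrins are their ligands on the surface of neighbouring cells. The expression of 10 genes of this family, the receptors EPHA1, EPHA2, EPHA4, EPHB2, EPHB3 and EPHB4 and the ligands EFNA1, EFNA4, EFNB1 and EFNB2, was examined in the lung adenocarcinoma line A549, of human origin, after knockdown of DEPDC1B. The genes were taken by symbol, and all 10 had a row among the 39720 symbols of the deposited table. They were chosen by family name with their ratios between these 2 libraries already known, so their counts and ratios are a description and no test was made on them.

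One culture received lentivirus for a hairpin directed at DEPDC1B (shDEPDC1B) and the other lentivirus for the control hairpin shNC, both with 5 µg/mL polybrene and both taken on day 2. Sequencing gave 18862371 counts for the single shDEPDC1B library and 18647290 counts for the single shNC library. There is no replicate of either, no p-value was computed, and each difference is one between 2 libraries. Square brackets hold exact 95% intervals, which cover counting error and nothing else. DEPDC1B itself had 39 counts in shDEPDC1B and 329 counts in shNC, a log2 ratio of -3.00 [-3.51, -2.52]. The epithelial keratin transcripts KRT8 and KRT18 were abundant in both libraries. They had 5670 and 5350 CPM (counts scaled to the effective library size) in shDEPDC1B and 5500 and 5140 CPM in shNC. Of the same list of 7 A549 and epithelial genes, AKR1B10 and ALDH1A1 had at least 3650 CPM in each library. CDH1 had 145 CPM in shDEPDC1B and 160 CPM in shNC, and KRT19 had 26 and 22.3 CPM. EPCAM was low, at 3.56 CPM in shDEPDC1B and 1.92 CPM in shNC.

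Eph receptors and ephrins signal where cells touch. Ephrin-A ligands are anchored to the membrane by a glycolipid and mostly bind EphA receptors, while ephrin-B ligands span the membrane and mostly bind EphB receptors, with EphA4 known to bind ligands of both classes. A bound receptor signals forward into its own cell through its kinase activity, and a bound ephrin-B signals in reverse into the cell that carries it, so that contacts end in repulsion, adhesion or boundary formation. In epithelial cancers EphA2 is often abundant and can act without its ligand.

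Of the 8 members with at least 30 counts in 1 of the libraries, EPHA4 and EFNB2 differed by 1.5-fold or more, and both were lower in shDEPDC1B. The other 6, among them the abundant receptors EPHA2, EPHB4 and EPHB2, differed by less than 1.5-fold. The windows around the annotated starts of EPHA4 and EFNB2 are shown here with that of EPHA2, the most abundant receptor, for contrast. Each is the RefSeq sequence of 250 bases before and 50 bases after a start on GRCh38.p14, read on the minus strand. Capitals mark matches on either strand to GGGCGG (the GC box), CACCTG (a ZEB site) or GGAATG (a TEAD site).
EPHA4 start at chr2:221574153-221574452: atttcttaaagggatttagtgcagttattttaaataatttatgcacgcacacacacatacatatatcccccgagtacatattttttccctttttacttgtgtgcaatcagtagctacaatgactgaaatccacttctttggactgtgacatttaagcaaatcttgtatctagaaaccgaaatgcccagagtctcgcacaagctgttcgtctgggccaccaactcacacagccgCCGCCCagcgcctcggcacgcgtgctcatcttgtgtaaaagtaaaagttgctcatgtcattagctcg
EPHA4 start at chr2:221572255-221572554: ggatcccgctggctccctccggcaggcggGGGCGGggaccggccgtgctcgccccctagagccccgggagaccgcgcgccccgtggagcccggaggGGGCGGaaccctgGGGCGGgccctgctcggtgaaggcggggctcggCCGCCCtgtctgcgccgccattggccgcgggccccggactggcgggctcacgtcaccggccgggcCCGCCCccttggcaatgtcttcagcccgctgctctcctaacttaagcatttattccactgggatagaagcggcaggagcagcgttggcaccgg
EFNB2 start at chr13:106535613-106535912: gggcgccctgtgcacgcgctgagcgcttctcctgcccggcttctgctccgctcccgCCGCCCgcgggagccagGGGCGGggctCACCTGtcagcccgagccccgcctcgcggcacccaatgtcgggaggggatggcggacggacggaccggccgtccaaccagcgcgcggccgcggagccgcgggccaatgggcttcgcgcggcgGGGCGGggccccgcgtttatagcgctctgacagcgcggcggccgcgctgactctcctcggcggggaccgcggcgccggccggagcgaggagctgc
EPHA2 start at chr1:16156020-16156319: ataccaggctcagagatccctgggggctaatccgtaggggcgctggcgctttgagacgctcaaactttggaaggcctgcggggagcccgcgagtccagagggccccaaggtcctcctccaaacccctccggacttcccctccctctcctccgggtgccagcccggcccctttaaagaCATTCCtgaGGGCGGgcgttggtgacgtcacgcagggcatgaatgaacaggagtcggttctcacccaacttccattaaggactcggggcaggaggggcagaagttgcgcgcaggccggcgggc

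The windows of EPHA4 and EFNB2 share only the GC box, which 19 of the 20 family genes with a window also hold and which occurs in 45% of 35116 promoter windows. The EFNB2 window holds 1 CACCTG match, which occurs in 20.6% of all windows. That motif is held by 5 of the 20 family genes, 3 of them members, EPHB2 among them. EPHA2 holds the only GGAATG match of the family (14% of all windows). TGANTCA (AP-1, 7.71% of all windows) and GCGTGGGCG (EGR1, 0.795%) were also searched on both strands and matched no window of the family. The matches shown do not overlap one another. EFNB2 has 49 CpG dinucleotides in its window, and the 2 EPHA4 windows have 12 and 33, against 20 in EPHA2 and a median of 14 over all windows. The 2 windows of EPHB2, which was not lower, have 49 and 48. These matches describe letters in a window and were not related to binding.

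The receptors are given first, from the most to the least abundant. EPHA2, which maintains epithelial contacts when bound to ephrin-A1, had 4832 counts in shDEPDC1B and 4480 counts in shNC, or 265 CPM in shDEPDC1B and 232 CPM in shNC. The log2 ratio was 0.19 [0.13, 0.25], a 1.14-fold [1.09, 1.19] difference, and EPHA2 was the most abundant family gene in both libraries. In bulk RNA a lower level in every cell and fewer cells that express the gene cannot be told apart, here and for every gene that follows.

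EPHB4, the receptor that pairs with ephrin-B2 between veins and arteries, had 1554 counts (85.2 CPM) in shDEPDC1B and 1470 counts (76.2 CPM) in shNC. Its log2 ratio was 0.16 [0.06, 0.26]. EPHB2, which positions cells in the intestinal crypt, had 1154 counts (63.3 CPM) in shDEPDC1B and 965 counts (50.1 CPM) in shNC, a log2 ratio of 0.34 [0.21, 0.46]. The counting intervals of these 3 receptors lie above equality but below 1.5-fold.

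EPHA4, which guides axons and also acts on ephrins of both classes outside the nervous system, had 15 counts in shDEPDC1B and 136 counts in shNC, or 0.822 [0.46, 1.36] CPM in shDEPDC1B and 7.05 [5.92, 8.34] CPM in shNC. The intervals do not overlap. That is a log2 ratio of -3.10 [-3.98, -2.33], or 11.7% [6.35, 19.9] of what shNC had. A gene with 30 counts or more in its higher library is called assessed here. Of 13850 assessed genes EPHA4 had the ratio of rank 28 from the lowest, and DEPDC1B had rank 35. By the upper end of the interval, which takes account of low counts, EPHA4 ranked 39 and DEPDC1B 34.

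EPHB3, a partner of EPHB2 in the crypt, had 14 counts in shDEPDC1B and 24 counts in shNC and was not assessed. Its log2 ratio of -0.70 [-1.76, 0.31] includes equality, so the depth does not show a difference. EPHA1 was listed at 0.5 estimated counts in shDEPDC1B and 0 in shNC. Both round to 0, and the exact intervals of a count of 0 reach up to 0.202 CPM in shDEPDC1B and 0.191 CPM in shNC.

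Of the member ligands, EFNB1, which marks tissue boundaries, had the most counts, with 469 counts (25.7 CPM) in shDEPDC1B and 558 counts (28.9 CPM) in shNC. Its log2 ratio of -0.17 [-0.35, 0.01] includes equality. EFNA1, the main ligand of EPHA2, had 282 counts (15.5 CPM) in shDEPDC1B and 248 counts (12.9 CPM) in shNC, a log2 ratio of 0.27 [0.01, 0.52]. EFNA4 had 101 counts (5.54 CPM) in shDEPDC1B and 98 counts (5.08 CPM) in shNC, and its log2 ratio of 0.12 [-0.29, 0.54] includes equality.

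EFNB2, the ligand of EPHB4 and EPHA4 that marks arterial endothelium, had 9 counts in shDEPDC1B and 65 counts in shNC, or 0.493 [0.226, 0.937] CPM in shDEPDC1B and 3.37 [2.6, 4.3] CPM in shNC. The intervals do not overlap here either. That is a log2 ratio of -2.77 [-3.96, -1.76], or 14.6% [6.41, 29.5] of what shNC had, at rank 50 from the lowest of all assessed genes and rank 102 by the upper end of the interval. With 9 counts the ratio is imprecise, and its interval reaches from a 3.39-fold to a 15.6-fold lower level.

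**Figure D1:**
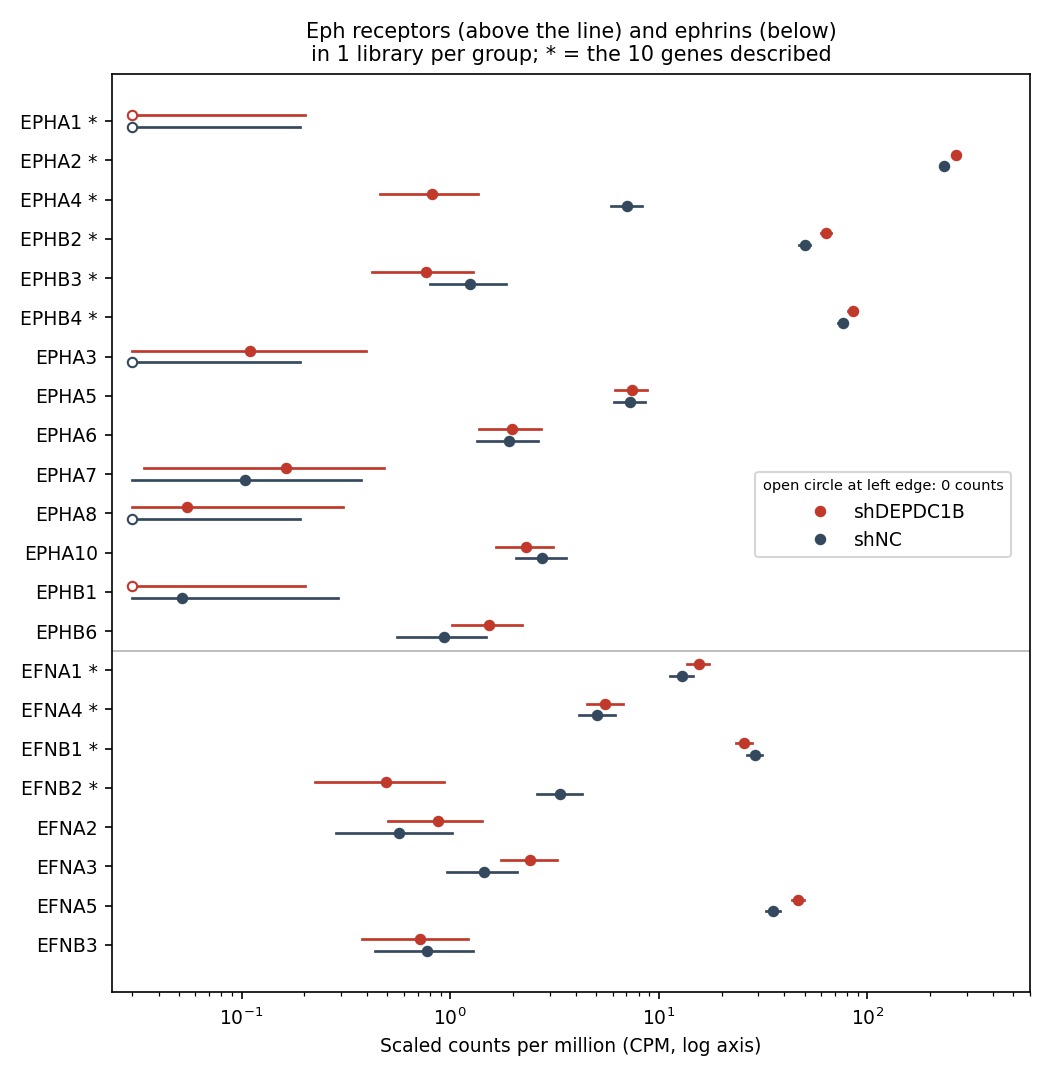
Level of each Eph receptor and ephrin gene in CPM on a log axis, with shDEPDC1B in red above shNC in dark blue and exact 95% Poisson intervals as lines, cut at the left edge. EPHA4 lies at 0.822 CPM in shDEPDC1B and 7.05 CPM in shNC and EFNB2 at 0.493 CPM in shDEPDC1B and 3.37 CPM in shNC, while the points of EPHA2, EPHB4 and EPHB2 lie close together.

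Of the 10 members, 8 were assessed, and of these 0 were higher in shDEPDC1B by 1.5-fold or more and 2 were lower, counting only intervals clear of equality. The same rule called 19.2% of all assessed genes higher and 19.6% lower, so the count of lower members is near the background. These ratios were known when the members were chosen. The median log2 ratio was 0.14 over the 8 assessed members, 0.17 over the 4 assessed receptors and -0.02 over the 4 ligands, against 0.04 over all assessed genes. EPHA4 and EFNB2 also passed a 2-fold threshold, which 5.86% of all assessed genes passed in the higher and 8.97% in the lower direction. The log2 ratios of the other 6 assessed members range from -0.17 to 0.34.

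The sign of the small differences moved with the scaling of the libraries. With TPM scaling (each count divided by transcript length and the sums set equal), an alternative added after the data were seen, the median of all assessed genes moved to -0.28, and the log2 ratios of EPHA2, EPHB4, EFNA1 and EFNA4 became -0.13, -0.16, -0.05 and -0.20. EPHA4 was at -3.42 and EFNB2 at -3.09 under that scaling. A change of scaling moves every log2 ratio by the same amount. The median of the 8 members therefore had to stay 0.10 above that of all assessed genes under both scalings. The number of assessed genes called was 2662 higher and 2708 lower with trimmed-mean scaling, 2029 higher and 3207 lower with library totals, and 1002 higher and 4597 lower with TPM scaling.

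**Figure D2:**
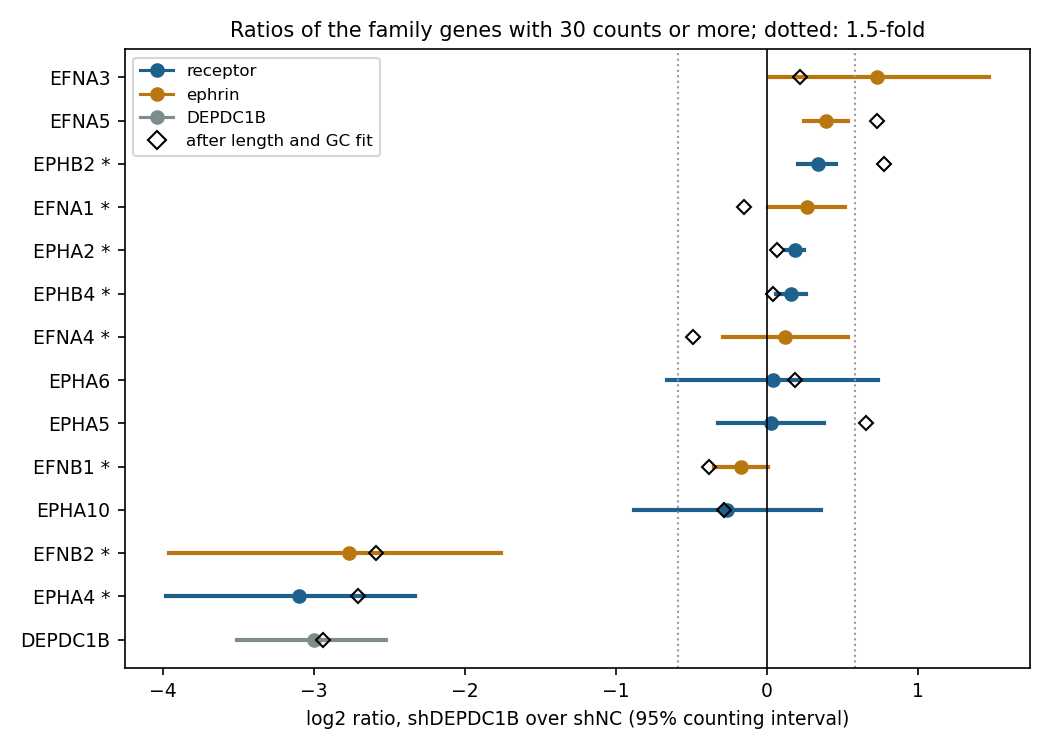
Log2 ratio of shDEPDC1B over shNC with its exact 95% counting interval for the 13 assessed family genes and DEPDC1B, receptors in blue and ephrins in orange, members starred, with open diamonds for values after the fit on transcript length and GC content. EPHA4 and EFNB2 lie at -3.10 and -2.77 beside DEPDC1B at -3.00, and the other genes lie between -0.26 and 0.73.

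The other 12 genes of the family complete the picture. EFNA5, an ephrin-A ligand not among the 10, was more abundant than any member ligand by counts, with 849 counts (46.5 CPM) in shDEPDC1B and 683 counts (35.4 CPM) in shNC and a log2 ratio of 0.39 [0.25, 0.54]. EFNA3 had 44 counts in shDEPDC1B and 28 counts in shNC and was the only other assessed family gene past 1.5-fold, at 0.73 [0.02, 1.47], with an interval that all but reaches equality, and at 0.41 with TPM scaling. EPHA5 had 135 counts in shDEPDC1B and 140 counts in shNC (0.03 [-0.32, 0.38]). EPHA6 was at 0.04 [-0.66, 0.74], and EPHA10, a receptor without an active kinase, at -0.26 [-0.88, 0.36]. Under 30 counts in both libraries were EPHB6, another kinase-dead receptor, with 28 counts in shDEPDC1B and 18 counts in shNC (0.72 [-0.19, 1.66]), EFNA2 with 16 counts in shDEPDC1B and 11 in shNC (0.62 [-0.58, 1.87]), and EFNB3 with 13 in shDEPDC1B and 15 in shNC. EPHA3, EPHA7, EPHA8 and EPHB1 had 0 to 3 counts in each library.

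Levels can be compared between genes only per length, and here CPM was divided by the length in kilobases of the longest annotated coding transcript. Among the 14 receptors the order in shDEPDC1B began with EPHA2 at 66.8 [64.9, 68.7] CPM per kilobase, EPHB4 at 19.7 [18.7, 20.7], EPHB2 at 5.85 [5.52, 6.2] and EPHA5 at 0.879 [0.737, 1.04]. In shNC it began with EPHA2 at 58.6 [56.9, 60.4], EPHB4 at 17.6 [16.7, 18.5], EPHB2 at 4.63 [4.34, 4.93], EPHA4 at 1.11 [0.933, 1.31] and EPHA5 at 0.862 [0.725, 1.02]. The first 3 are separated by their counting intervals in both libraries, whereas the intervals of EPHA4 and EPHA5 overlap in shNC. EPHA4 was in place 9 of 14 in shDEPDC1B, at 0.13 [0.0725, 0.214] CPM per kilobase, and in place 4 in shNC. EPHA2 made up 70.4% of the summed receptor level in shDEPDC1B and 69.5% in shNC, and EPHA4 made up 0.137% in shDEPDC1B and 1.32% in shNC. Levels per length depend on the transcript taken: the 8 coding transcripts of EPHA4 run from 552 to 6346 nucleotides and the 5 of EPHB2 from 1709 to 10816.

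Among the 8 ligands the order in shDEPDC1B began with EFNA5 at 8.72 [8.15, 9.33] CPM per kilobase, EFNA1 at 8.03 [7.12, 9.02] and EFNB1 at 7.76 [7.07, 8.49], and each of these overlaps the next. In shNC EFNB1 came first at 8.73 [8.02, 9.49], followed by EFNA1 at 6.68 [5.87, 7.56] and EFNA5 at 6.64 [6.15, 7.16], which overlap each other. EFNA4 followed at 4.38 [3.57, 5.33] in shDEPDC1B and 4.02 [3.27, 4.9] in shNC. EFNB2 was last of 8 in shDEPDC1B, at 0.0988 [0.0452, 0.187] CPM per kilobase, where it overlaps EFNB3 at 0.221 [0.118, 0.378], and in place 6 in shNC, at 0.675 [0.521, 0.86], where it overlaps EFNA2. Summed by class, the 5 ephrin-A genes had 70.8 CPM in shDEPDC1B and 55.4 CPM in shNC, a log2 ratio of 0.35 [0.24, 0.47], and the 3 ephrin-B genes had 26.9 CPM in shDEPDC1B and 33.1 CPM in shNC, at -0.30 [-0.47, -0.13]. With TPM scaling these 2 values were 0.04 for the A class and -0.62 for the B class. The sum of the EphA receptors was at 0.14 [0.09, 0.20] and is mostly that of EPHA2. The sum of the EphB receptors was at 0.23 [0.15, 0.31]. Of its 2750 counts in shDEPDC1B, EPHB4 had 1554 and EPHB2 had 1154. With TPM scaling the sums were at -0.18 for the A class and -0.09 for the B class.

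Transcript length moved with the ratios of all genes, and its part in the members' ratios was not tested beyond the fits that follow. Assessed coding genes were put in 10 length classes of equal size, and the median log2 ratio was 0.58 in the class with the shortest transcripts and -0.63 in that with the longest. EPHA4, with a longest coding transcript of 6346 nucleotides, belongs to class 9, with a median of -0.42, of which 90% of genes lie between -1.47 and 0.56. EFNB2, with 4995 nucleotides, belongs to class 8, with a median of -0.26 and a range for 90% of genes from -1.27 to 0.64. Both members lie below those ranges. After a linear fit on length and GC content was subtracted, EPHA4 was at -2.71 and EFNB2 at -2.59, and a loess on length gave -2.71 and -2.55.

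EPHB2, with the longest annotated transcript of the family, had a ratio above 1 while the median of its class was -0.63. After the fit it was at 0.78, past 1.5-fold, and after the loess at 0.99. The fit left 12.6% of the 13013 assessed genes with a known length called higher and 13.5% called lower. Outside the 10 members, EFNA5 and EPHA5 were at 0.73 and 0.66 after the fit, and EFNA3 was at 0.22, no longer past 1.5-fold. EFNA1 and EFNA4, which have short transcripts, went the other way, to -0.15 and -0.49 after the fit, where their signs turned. EPHA2 and EPHB4 were at 0.07 and 0.04. The median of the 8 assessed members was -0.27 after the fit, 0.29 below that of all assessed genes where it had been 0.10 above, and the median of the 4 ligands was -0.43.

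**Figure D3:**
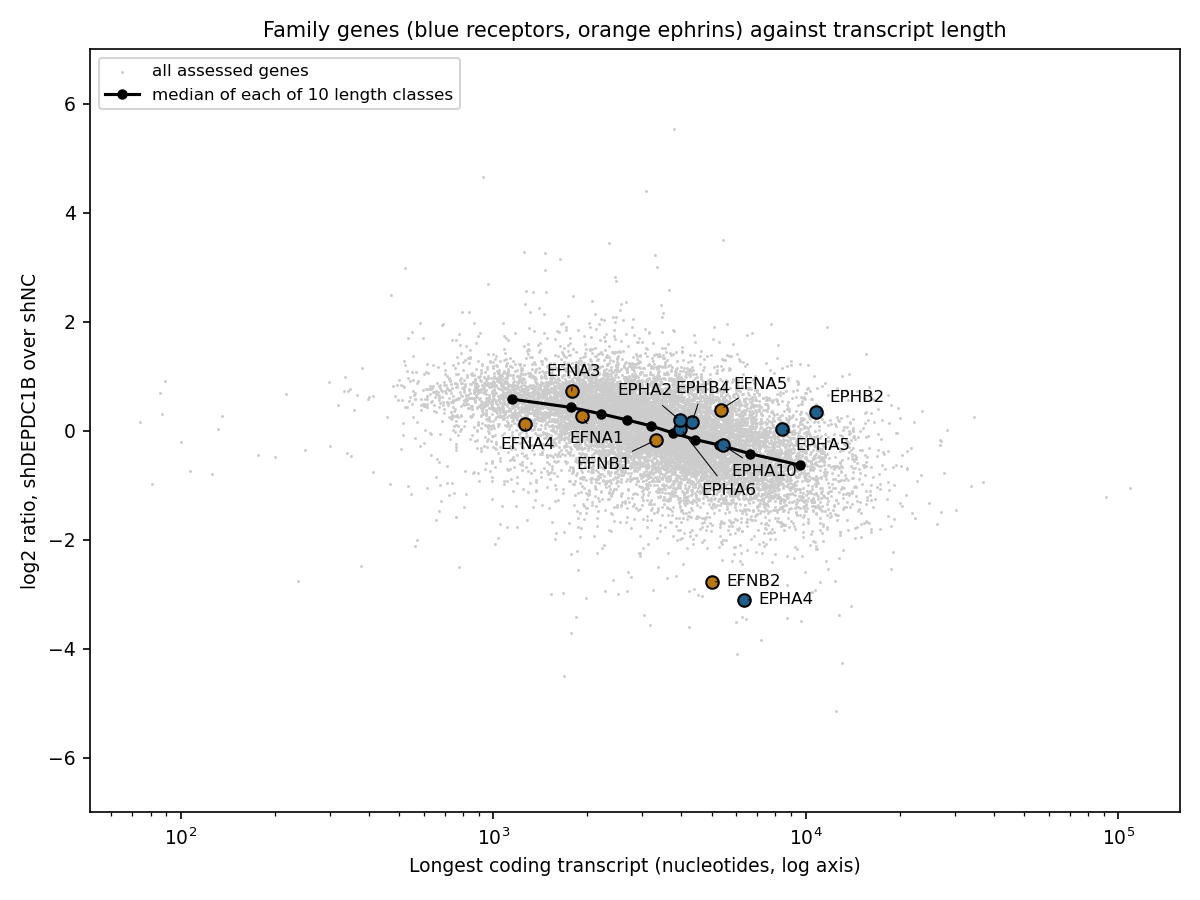
Log2 ratio of shDEPDC1B over shNC against the longest coding transcript on a log axis, with all assessed genes in grey, the medians of the 10 length classes in black, receptors in blue and ephrins in orange. EPHA4 and EFNB2 lie far under the line, EPHB2 and EFNA5 over it, and EFNA4 and EFNA1 under it.

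Genes that lie over or beside the members were examined because strand is not stated for these libraries and reads from both strands of a locus may then be mixed. Of the distinct 50-base words in EFNB2 transcripts, 21.6% also occur in transcripts of the antisense gene AL138689.2, and 3.9% of those of EPHA4 occur in the antisense gene AC079834.2. These antisense genes have no row under these names among the deposited symbols, so they could not be analysed. The part of antisense reads in the EFNB2 and EPHA4 counts was not tested. EPHB4 overlaps the start of SLC12A9 on the other strand, which was higher at 0.83 [0.65, 1.01], and shares 21 of its 6505 words with it. Words shared within the family were found only between EPHA2 and EPHB2, 10 in all.

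EPHA4 (chromosome 2, 221418027 to 221574202, minus strand, GRCh38) has few expressed neighbours. Within 1000 kb of it the assessed genes were SGPP2, with 80 counts in shDEPDC1B and 128 counts in shNC (-0.60 [-1.02, -0.18]), and FARSB, with 1728 counts in shDEPDC1B and 2207 counts in shNC (-0.27 [-0.36, -0.18]). Around EFNB2 (chromosome 13, 106489731 to 106535662, minus strand) ARGLU1 was the only assessed gene, with 1423 counts in shDEPDC1B and 1845 counts in shNC (-0.29 [-0.40, -0.19]). These neighbours were all lower in shDEPDC1B, with intervals clear of equality, though none had a ratio as low as EPHA4 or EFNB2. SGPP2 passed 1.5-fold, as 19.6% of all assessed genes did in the lower direction. Whether genes of a region changed together was not tested.

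EFNA4 (155063731 to 155069553), EFNA3 (155078872 to 155087538) and EFNA1 (155127460 to 155134857) lie in a row on the plus strand of chromosome 1. EFNA4 and EFNA3 are joined by an annotated read-through gene, AL691442.1, which holds 10.7% of the words of EFNA4 and 42.2% of those of EFNA3, so the count of EFNA3 in particular is uncertain. Of 13 other assessed genes within 100 kb, 3 were at least 1.5-fold higher in shDEPDC1B (the background is 19.2%) and 0 lower, with a median log2 ratio of 0.28. After the length and GC fit 0 were higher and 2 lower (backgrounds of 12.6% and 13.5%), with a median of -0.01. The 3 were DPM3 at 1.29 [0.90, 1.68], KRTCAP2 at 0.72 [0.55, 0.90] and the metalloprotease gene ADAM15, next to EFNA4, at 0.70 [0.61, 0.80]. Before the fit EFNA1 was at 0.27 and EFNA4 at 0.12, beside the neighbourhood median of 0.28. After the fit EFNA1 was at -0.15 and EFNA4 at -0.49, below the neighbourhood median of -0.01.

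Genes known to act with the family were counted in 3 lists, chosen with earlier results of these data known. Of 33 assessed effectors of forward signalling, 2 were at least 1.5-fold higher and 12 lower, with a median log2 ratio of -0.29 against 0.04 over all assessed genes. The background shares are 19.2% higher and 19.6% lower. The lower genes were led by the kinases ROCK1, which drives contraction, at -1.19 [-1.29, -1.09], the SRC family member YES1 at -1.13 [-1.25, -1.01] and ABL2 at -0.97 [-1.09, -0.85], and by the phosphoinositide 3-kinase subunit PIK3R1 at -1.18 [-1.39, -0.97]. The exchange factor ARHGEF16, an ephexin that binds EPHA2, had 118 counts in shDEPDC1B and 34 counts in shNC and was higher at 1.88 [1.31, 2.47], and the GTPase RAC1 was higher at 0.69 [0.64, 0.75]. Relatives of ROCK1, YES1 and ABL2 in the list varied. ROCK2 was at -0.17 [-0.24, -0.11], SRC at 0.31 [0.26, 0.37], FYN at -0.60 [-1.15, -0.06], LYN at -0.33 [-0.47, -0.18] and ABL1 at -0.29 [-0.39, -0.19]. RHOA (0.03 [-0.01, 0.08]) and CDC42 (0.03 [-0.03, 0.09]) had ratios within counting error of equality. These transcripts are long, with a median of 4630 nucleotides, and after the length and GC fit 10 were lower and 3 higher, with a median of -0.23, against backgrounds of 13.5% lower and 12.6% higher. ROCK1 and ABL2 were then at -0.53 and -0.29, short of 1.5-fold.

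Of 12 assessed effectors of reverse signalling 2 were higher and 3 lower, with a median log2 ratio of -0.11. The background shares are 19.2% higher and 19.6% lower, so these counts are near the background. The phosphatase PTPN13, which docks on ephrin-B tails, was at -1.27 [-1.39, -1.15], the Dishevelled gene DVL2 at -1.09 [-1.30, -0.88] and the scaffold GRIP2 at -0.65 [-1.04, -0.28], while the polarity gene PARD6B was at 0.99 [0.82, 1.16] and PICK1 at 0.78 [0.55, 1.02]. Syntenin, encoded by SDCBP, was at -0.34 [-0.41, -0.28]. With the fit on length and GC content 1 of the 12 was higher and 3 lower, against backgrounds of 12.6% higher and 13.5% lower. GRIP2 (-0.40) and PICK1 (0.37) then fell short of 1.5-fold.

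Of 17 assessed genes for cleavage, degradation and dephosphorylation of Eph receptors and ephrins 3 were higher and 4 lower, with a median of -0.10. These counts too are near the background of 19.2% higher and 19.6% lower. The ubiquitin ligase CBL, which targets active receptors, had 330 counts in shDEPDC1B and 1281 counts in shNC, at -1.88 [-2.06, -1.70], and the fit on length and GC content left -1.24. Its relative CBLB was at -0.93 [-1.18, -0.68] and the phosphatases PTPRJ and PTPN11 at -1.09 [-1.15, -1.03] and -0.88 [-0.94, -0.83]. The gamma-secretase subunits NCSTN, at 0.89 [0.80, 0.99], and PSENEN, at 0.78 [0.67, 0.90], were higher, as was the membrane protease MMP14 at 0.86 [0.21, 1.54]. ADAM10, the main sheddase of ephrins, was at -0.57 [-0.62, -0.52], just short of 1.5-fold, and its sign turned with that fit (0.22) and with the loess (0.10). The fit left 2 of the 17 higher and 3 lower, against backgrounds of 12.6% higher and 13.5% lower. CBLB at -0.44, PTPN11 at -0.46 and PSENEN at 0.42 were then short of 1.5-fold.

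**Figure D4:**
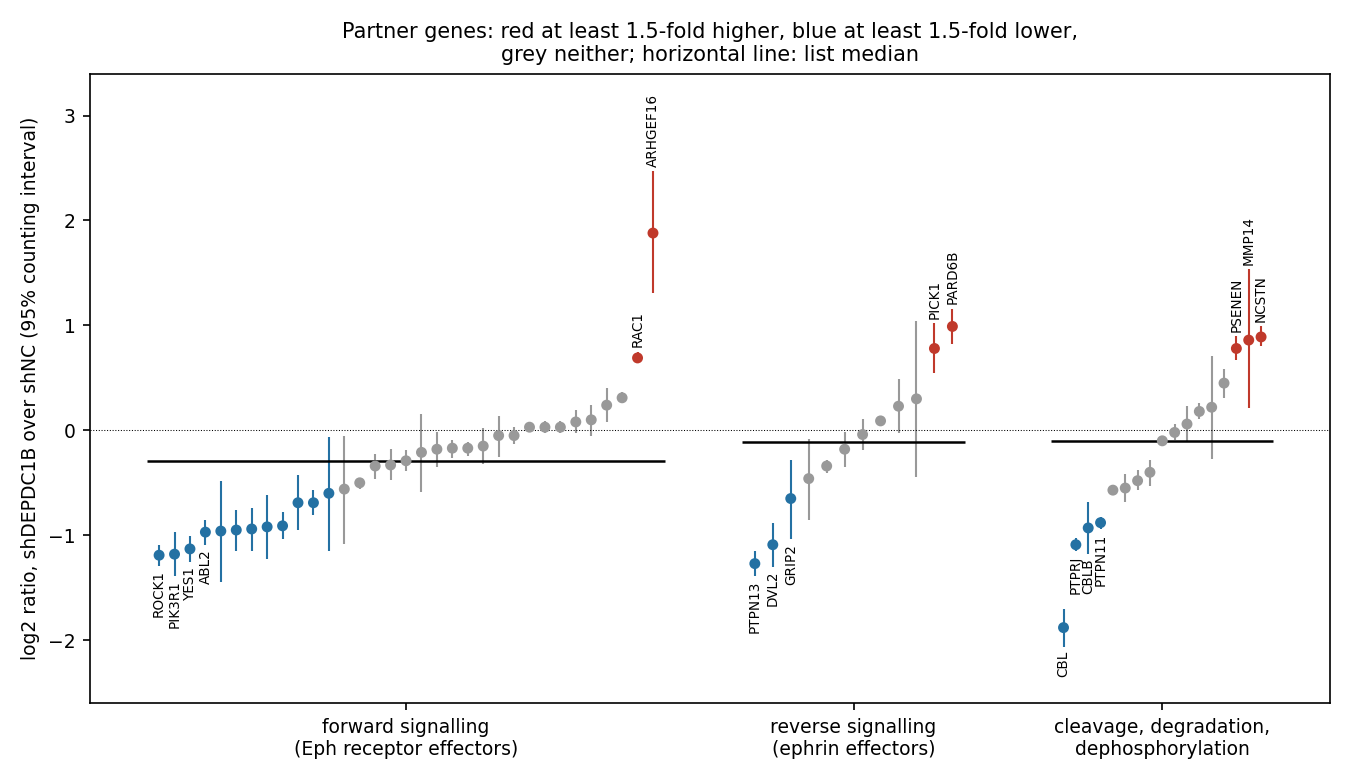
Log2 ratio of shDEPDC1B over shNC with its exact 95% counting interval for every assessed gene of the 3 partner lists, in order of the ratio, with list medians as horizontal lines at -0.29, -0.11 and -0.10. The genes named by the rule are labelled, and 12 of 33 forward effectors lie at least 1.5-fold lower, against 19.6% of all assessed genes.

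EFNB2 and EPHB4 are also used as markers of arterial and venous endothelium, so endothelial genes were examined. Of 12 endothelial marker genes only EGFL7 was assessed, with 530 counts in shDEPDC1B and 282 counts in shNC. KDR, ERG and ROBO4 had 0 counts in both libraries, CDH5 had 2 in each and CLDN5 had 1 in each. ESAM had 14 counts in shDEPDC1B and 24 in shNC. In the same order PECAM1 had 6 and 11, FLT1 4 and 10, TIE1 0 and 7 and TEK 0 and 1. VWF went the other way, with 2 in shDEPDC1B and 0 in shNC. The summed level of the list was 30.6 CPM in shDEPDC1B and 17.5 CPM in shNC, of which EGFL7 made up 29.1 CPM in shDEPDC1B and 14.6 CPM in shNC. The other 11 genes had at most 24 counts each, too few to be assessed, and summed to 1.59 CPM in shDEPDC1B and 2.9 CPM in shNC. The part of endothelial transcripts in the EFNB2 ratio was not tested.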

How the data were processed

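RNA was sequenced in 2 libraries of A549 cells, shDEPDC1B and shNC, and groups follow the treatment label. The values deposited for each gene symbol are estimated counts that the authors made with Bowtie2 and RSEM on hg38, per the submitters' processing notes. Neither versions nor annotation, RNA selection or strandedness is given in the sources used here. RSEM splits reads between similar genes by a model, an error that counting intervals do not hold.

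Estimated counts were rounded. Libraries were scaled with TMM factors (edgeR 4.0.16 in R 4.3.3), 0.967 for shDEPDC1B and 1.03 for shNC. Each ratio carries a Clopper-Pearson interval of the share of counts in shDEPDC1B, and each level a Poisson interval, computed with scipy 1.17.1. Since 1 library per group leaves no spread, no test was run. Genes were called at 1.5-fold with an interval clear of equality. Lengths, GC content and coordinates come from GENCODE 29 (GRCh38), promoter windows from RefSeq. Length and GC were known for 94.0% of assessed genes, and the fit on 12265 coding genes took up 29.4% of the variance. The steps were tested on simulated counts.

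Named are all 22 family genes, up to 4 higher and 4 lower genes per partner list by the interval end nearest to equality, and overlapping or adjacent genes. RHOA, CDC42, ROCK2, SRC, FYN, LYN, ABL1, SDCBP, ADAM10 and the flanking genes were named after their values were seen. Members, lists, motifs and alternatives were chosen with earlier results of these data known. Results were recomputed under 10 other settings, DESeq2 1.42.0 size factors among them, and with TPM scaling, added later.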

Additional observations from a re-analysis of the deposited data

How the results depend on the processing

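EPHA4 and EFNB2 stayed at least 1.5-fold lower under all scalings, the prior count and both length corrections, with log2 ratios from -3.42 to -2.71 and from -3.09 to -2.54. Of 180 values of the other results under alternatives 138 kept within the range set by counting error or by a count within 1.5 times, and 42 moved. A minimum of 100 counts left 1 lower member, because EFNB2 has fewer counts, and a median of -0.40 for the cleavage and degradation list. Over all genes that pass that minimum, 2196 were called higher and 2180 lower. Library totals gave a receptor median of 0.08. A lower neighbour of the EFNA genes appeared with library totals and without a filter (1 each). Over all genes, 2029 were called higher and 3207 lower with library totals, and 2992 higher and 3261 lower without a filter. At a 2-fold threshold the forward effectors had 3 lower and 1 higher, and the reverse effectors 0 higher. The cleavage and degradation list had 2 lower and 0 higher, and the EFNA neighbours 1 higher. Of all assessed genes, 5.86% were higher and 8.97% lower at that threshold.

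The length and GC fit gave 1 higher member (EPHB2), medians of -0.27 for members, 0.06 for receptors, -0.43 for ligands and 0.05 for the cleavage and degradation list, 1 higher reverse effector, and for the EFNA neighbours 2 lower, 0 higher and a median of -0.01. The loess on length gave 1 higher member, medians of -0.17 for members and 0.27 for receptors and 1 higher reverse effector. It gave 2 lower cleavage and degradation genes, and for the EFNA neighbours 1 lower, 0 higher and a median of 0.08. Of the 13013 assessed genes with a known length, 12.6% were called higher and 13.5% lower after the fit. After the loess 1674 assessed genes were called higher and 1947 lower. With TPM scaling, chosen after seeing the data, medians were -0.18 for members, -0.14 for receptors, -0.34 for ligands, -0.61 for forward effectors, -0.43 for reverse effectors, -0.42 for cleavage and degradation and -0.04 for the EFNA neighbours. Higher genes were then 1 forward effector, 1 reverse effector, 0 for cleavage and degradation and 1 EFNA neighbour. Lower genes were 17 forward effectors, 5 reverse effectors, 8 for cleavage and degradation and 2 EFNA neighbours. Of all 13850 assessed genes, 1002 were higher and 4597 lower with that scaling. The prior count of 2, upper-quartile and DESeq2 scaling and scaling on coding genes moved none of these results. Apart from what the settings themselves change, the cause was not tested.

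No paired analysis was possible because each group has 1 library. At this depth EPHB3 and EPHA1 have too few counts to give a direction, and EFNB2 rests on 9 counts in shDEPDC1B.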
